A study of Mus musculus with 8 samples.

Results

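The 45 genes described here were selected on their measured levels in fully grown mouse oocytes: protein-coding genes whose mean in Kiaa1429 conditional knockout (cKO) oocytes was at most 1/5 of a control mean of at least 10 CPM. CPM is a gene's exon count divided by the library's total of exon counts, times 1000000. They are 45 of 4619 protein-coding genes that reached that control level, after Bach2 and symbols beginning with Zfp, Slc, Hist, Olfr, Vmn, Rnf or Trim were set aside. Without those exceptions 57 of 4938 coding genes met both criteria (1.15%), so 12 were set aside by symbol. The level in cKO against control is what chose the genes, and those values are given below as a description with no test of the set. The files list 52502 genes, of which 10673 had enough counts to be tested.

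Polyadenylated RNA was measured in 8 libraries of germinal vesicle (GV) oocytes, which have completed growth and are held in meiotic prophase, with 4 libraries per group and about 20 oocytes per library. In the cKO, genotype Kiaa1429F/F;Zp3-Cre, both copies of Kiaa1429 (now Virma) carried the floxed allele, and in the control, Kiaa1429F/+;Zp3-Cre, 1 copy did. Both groups thus carried Zp3-Cre, a recombinase driven by a promoter active in growing oocytes, and the controls are by design heterozygous in oocytes and not wild type. All were C57BL/6 females, given as 20 days old in one label and as 3 weeks old in another, that received 5 IU of PMSG, a gonadotropin that drives follicle growth. Oocytes of at least 70 µm were taken after 48 hours into medium with milrinone, which holds them in prophase.

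VIRMA is a scaffold protein of the nuclear methyltransferase complex for N6-methyladenosine (m6A) in RNA, a mark that affects the splicing, export, translation and decay of transcripts. A growing oocyte builds a store of messenger RNA and then stops transcription, so that the RNA of the fully grown oocyte is what was made earlier and has survived. Many stored messengers carry short poly(A) tails, and their count after oligo-dT priming depends on the tail as well as on the amount. The proportion of an mRNA with a short tail was not measured here, and less RNA per oocyte and fewer oocytes holding the RNA cannot be told apart in libraries of pooled oocytes.

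Virma itself, the deleted gene, had 19.0, 25.6, 18.9 and 18.0 CPM in cKO, against 57.6, 70.6, 50.8 and 77.2 CPM in control (20.4 ± 3.51 CPM in cKO and 64.0 ± 12.0 CPM in control, SD, n = 4 each). Every cKO library was below every control library, in the direction of the labels (log2 fold change -1.81, SE 0.18, adjusted p = 1.02e-06, edgeR quasi-likelihood test). Libraries held 4399190 to 5064008 exon counts in cKO and 4247471 to 4790038 in control, so that 3 counts were worth 0.594 to 0.683 CPM in cKO and 0.628 to 0.708 CPM in control. Summed oocyte markers were 22440 ± 1852 CPM in cKO and 38167 ± 4663 CPM in control, and summed cumulus and granulosa markers 591 ± 136 CPM in cKO and 262 ± 72.1 CPM in control (n = 4 each, exact two-sided permutation p = 0.0286 for both, the smallest that 4 against 4 allows). Bmp15 (7673 CPM in cKO, 17573 CPM in control) and Gdf9 (8523 CPM in cKO, 12740 CPM in control) weigh most in the oocyte sum. Zp3, on the same list, averaged 238 CPM in cKO and 222 CPM in control (adjusted p = 0.77, edgeR). In the cumulus and granulosa sum, Nr5a2 alone averaged 338.5 CPM in cKO and 130 CPM in control. Immune and blood markers summed to 8.88 ± 1.85 CPM in cKO and 0.504 ± 0.249 CPM in control (exact permutation p = 0.0286), with Ptprc, Hbb-bt, Hba-a1, Adgre1 and Cd74 listed at 0 in all libraries. Theca and stroma markers (5.61 ± 0.743 CPM in cKO and 6.81 ± 0.831 CPM in control, exact permutation p = 0.0571) and vessel markers (10.9 ± 3.34 CPM in cKO and 10.2 ± 2.37 CPM in control, exact permutation p = 0.714) did not pass. None of the 45 genes is on a marker list, and the part of follicle cells in their values was not tested. The labels speak of separate experiments but tie no library to an animal, so a p-value here reflects the spread among these libraries.

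As a group the 45 genes stood at a median of 14.98% of control in cKO (range 2.92% to 19.8%), whereas the median over all 4619 coding genes at 10 CPM or more in control was 111%. At 10% of control or less were 9 genes, between 10% and 15% were 14, and the other 22 lay above. Their mean levels ran from 0.502 to 78.2 CPM in cKO (median 4.67) and from 11.01 to 597 CPM in control (median 32.8), against a control median of 50.7 CPM over the same coding genes. In control 8 of them reached 100 CPM, 26 lay between 20 and 100 CPM and 11 below 20 CPM. No gene was at 0 in any of the 8 libraries. The 45 together made up 515, 433, 388 and 516 CPM in the cKO libraries, against 3276, 3126, 2909 and 3543 CPM in the control libraries, that is 0.0463% ± 0.00637 of counts in cKO and 0.321% ± 0.0266 in control (n = 4 each). All 45 had every cKO library below every control library, which 20.5% of all tested genes also had, and all 45 were among the 27.9% of tested genes called lower by edgeR. Both follow from a selection on the same libraries, and nothing is read from them.

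**Figure D1:**
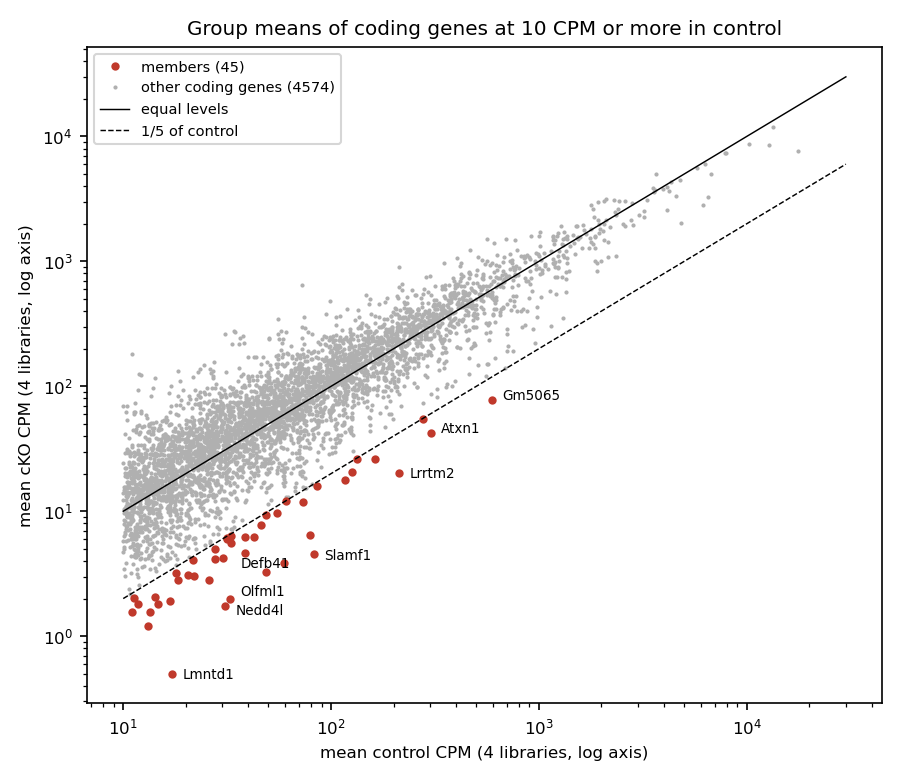
Mean CPM of coding genes at 10 CPM or more in control, with cKO on the vertical and control on the horizontal axis, both logarithmic, n = 4 libraries each; red points are the 45 selected genes, grey points the other 4574. The red points lie on or below the dashed line of 1/5 by selection, and Lmntd1 is farthest below it, at 2.92% of control.

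The promoters of these genes are shown first, since the selection did not use their sequence. The number of CG dinucleotides in them stood below that of the comparison genes, the other coding genes at 10 CPM or more in control. The sets were not matched for level: the control median was 32.8 CPM for the 45 genes and 50.7 CPM over all 4619 coding genes. The part of level in the sequence differences was not tested. RefSeq promoter windows of GRCm38.p6, from 250 bases before to 50 after the annotated start, matched 32 of the 45 genes by symbol. Their median number of CG dinucleotides was 6.5, against 22 in the 3525 matched comparison genes and 7 in all 27025 promoters of the table. Windows with 5 or fewer CG numbered 15 of the 32 (46.9%), against 366 comparison genes (10.4%) and 43.6% of all promoters. Median GC content was 53.8%, against 61.3% in the comparison genes and 52.7% in all promoters. The 4 windows below run from the CG-poor to the CG-rich end of the 32 matched genes, and capitals mark each CG.
Defb41 promoter: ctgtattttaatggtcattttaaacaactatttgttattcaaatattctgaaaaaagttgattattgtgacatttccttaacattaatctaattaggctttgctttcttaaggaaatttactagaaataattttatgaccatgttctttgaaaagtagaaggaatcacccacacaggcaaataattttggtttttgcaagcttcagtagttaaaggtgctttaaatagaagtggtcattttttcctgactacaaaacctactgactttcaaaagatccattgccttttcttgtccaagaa
Olfml1 promoter: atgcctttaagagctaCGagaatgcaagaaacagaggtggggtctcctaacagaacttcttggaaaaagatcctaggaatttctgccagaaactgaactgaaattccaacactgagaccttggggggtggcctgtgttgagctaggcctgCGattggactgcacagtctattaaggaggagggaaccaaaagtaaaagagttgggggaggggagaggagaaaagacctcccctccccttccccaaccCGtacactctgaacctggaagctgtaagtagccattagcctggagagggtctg
Slamf1 promoter: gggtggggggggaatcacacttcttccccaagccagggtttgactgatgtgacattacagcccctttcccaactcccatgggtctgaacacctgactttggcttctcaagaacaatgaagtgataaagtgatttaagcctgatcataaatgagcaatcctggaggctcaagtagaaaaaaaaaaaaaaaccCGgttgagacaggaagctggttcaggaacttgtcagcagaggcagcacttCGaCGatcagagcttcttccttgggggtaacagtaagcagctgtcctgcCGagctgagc
Gon7 promoter: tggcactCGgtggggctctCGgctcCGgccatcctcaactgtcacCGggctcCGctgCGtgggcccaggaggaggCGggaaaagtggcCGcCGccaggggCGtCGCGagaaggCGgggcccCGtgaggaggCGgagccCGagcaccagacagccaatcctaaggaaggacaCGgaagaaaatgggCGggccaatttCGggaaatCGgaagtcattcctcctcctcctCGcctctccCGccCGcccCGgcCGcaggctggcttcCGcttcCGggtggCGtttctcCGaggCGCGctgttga
The Defb41 window (chr1:18265089-18265388, minus strand) holds 0 CG, that of Olfml1 (chr7:107567183-107567482, plus strand) 3 and that of Slamf1 (chr1:171766882-171767181, plus strand) 4. Gon7, at 31 CG (chr12:102757761-102758060, minus strand), has the CG-richest window of the 32. Of the short motifs searched on both strands, TATAAA was in 3 windows (9.38%, Gm7073, Mmp1b and Tnip3), against 7.12% of comparison genes and 14.2% of all promoters, and CCAAT in 10 (31.3%), against 39.5% of comparison genes and 37.9% of all. CACGTG was in 1 (3.13%, Tnfrsf21), against 10.7% of comparison genes and 7.24% of all, and TAATTA in 1 (Defb41), against 2.70% of comparison genes and 5.31% of all. These are letter matches in fixed windows. Only the first window listed for a symbol was used, and it need not be where the counted RNA starts. In Lmntd1 and Fancc, both on the minus strand, the leading exon lies upstream of the window, so that RNA does not start in it. The exons are chr6:145580541-145582650 and chr13:63497101-63497278, the windows chr6:145434876-145435175 and chr13:63431696-63431995. Fam124b and Nav2 also have counted exons upstream of their windows. For Me3, counted on an exon of another transcript, the start was not determined. How often such mismatches occur in the comparison genes was not tested.

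**Figure D2:**
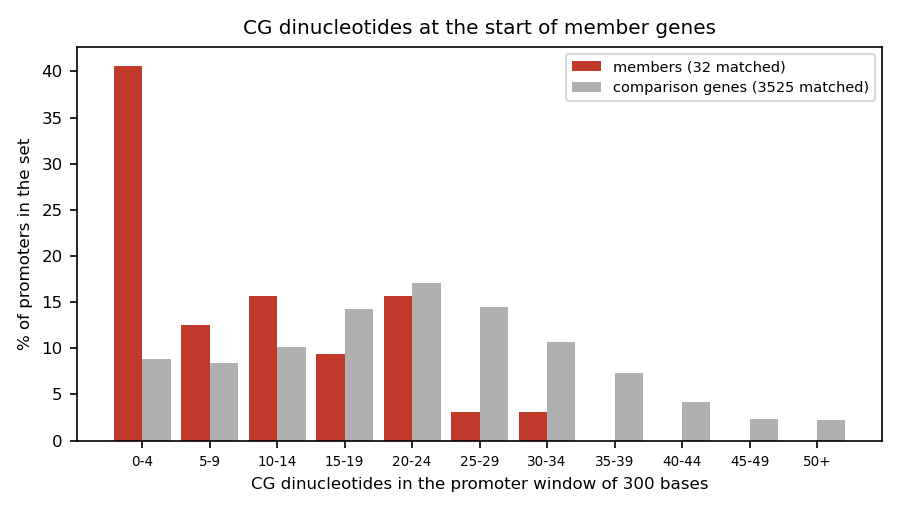
Share of promoter windows (vertical axis, % of the set) by number of CG dinucleotides in 300 bases (horizontal axis), for the 32 matched genes (red, left bars) and 3525 matched comparison genes (grey). The red bars are tallest in the lowest class and none lies above 34 CG, and the medians are 6.5 for the 32 matched genes and 22 for the matched comparison genes.

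Of the 45 genes, 8 encode receptors and adhesion molecules of the cell surface, at 5.52% to 18.7% of control. Slamf1, a self-binding receptor of lymphocytes and macrophages, had 6.54, 4.27, 3.65 and 3.76 CPM in cKO, against 93.2, 54.8, 94.3 and 87.8 CPM in control. The cKO libraries were close together, while control replicate 2 lay below the other controls. Lrrtm2, a leucine-rich membrane protein that binds neurexins at synapses, had 26.6, 20.4, 11.6 and 22.8 CPM in cKO, against 204, 118, 297 and 233 CPM in control. It had the highest mean CPM of these 8 genes in control, with cKO replicate 3 lowest and control replicate 3 highest of their groups. S1pr3, a G protein-coupled receptor for sphingosine-1-phosphate, had 38.8, 17.1, 20.05 and 29.5 CPM in cKO, against 123, 173, 250.2 and 105 CPM in control, with wide spread among the controls. Opalin, a membrane protein named from oligodendrocyte myelin, had 18.7, 21.8, 15.04 and 15.4 CPM in cKO, against 114, 132, 101 and 120.3 CPM in control, and its libraries were tight in both genotypes. Pcdhb17, of the clustered beta protocadherins, had 18.7, 15.3, 12.8 and 17.02 CPM in cKO, against 87.9, 63.5, 103 and 87.3 CPM in control. Tnfrsf21, also called death receptor 6, had 4.06, 5.61, 3.87 and 5.15 CPM in cKO, against 36.2, 45.1, 47.3 and 25.4 CPM in control. In both genes all cKO libraries lay well under the lowest control. Clmp, an immunoglobulin-family adhesion molecule of cell junctions, averaged 3.23 ± 0.769 CPM in cKO and 17.99 ± 2.90 CPM in control, and Cdh8, a classical cadherin, 1.57 ± 0.874 CPM in cKO and 13.5 ± 1.14 CPM in control.

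Secreted and matrix proteins were 5. Olfml1, an olfactomedin-like glycoprotein, had 2.48, 1.35, 1.14 and 2.97 CPM in cKO, against 37.1, 29.98, 30.7 and 32.9 CPM in control, at 6.08% of control. Defb41, a beta-defensin, had 3.16, 3.14, 2.51 and 6.73 CPM in cKO, against 58.6, 57.6, 31.6 and 89.7 CPM in control, at 6.54%. Control replicate 3 was lowest and control replicate 4 highest, and cKO replicate 4 stood above the other cKO libraries. Mmp1b, a mouse relative of interstitial collagenase, had 0.903, 1.57, 1.37 and 0.99 CPM in cKO, against 13.2, 18.4, 3.98 and 16.9 CPM in control. Here control replicate 3 was far below the other controls and the groups came closest among these 5 genes. Over all 45, by ratio, they came closest in Speer4f2, where the highest cKO library had 11.5 CPM and the lowest control library 18.4 CPM. Fstl1, a secreted follistatin-like glycoprotein, had 7.67, 9.88, 3.19 and 10.1 CPM in cKO, against 44.2, 65.2, 34.6 and 39.8 CPM in control, and F13a1, the A chain of the factor that cross-links fibrin, had 3.38, 3.82, 1.37 and 3.56 CPM in cKO, against 14.7, 23.1, 25.7 and 24.5 CPM in control. In both the control groups lay above all cKO libraries, and cKO replicate 3 was lowest.

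Among 4 genes of intracellular signalling, Nedd4l, a HECT-type ubiquitin ligase known for the sodium channel of epithelia, had 2.71, 1.35, 1.14 and 1.78 CPM in cKO, against 31.2, 29.04, 29.5 and 33.9 CPM in control, at 5.64% of control. Its control libraries were the most even of this group. Nyap2, an adaptor of phosphoinositide 3-kinase in neurons, had 11.3, 8.31, 8.43 and 9.10 CPM in cKO, against 46.7, 52.6, 56.6 and 38.4 CPM in control. Nek7, a NIMA-related kinase of mitosis and of the NLRP3 inflammasome, had 2.71, 1.35, 1.59 and 1.98 CPM in cKO, against 12.8, 21.01, 13.1 and 20.00 CPM in control. Tnip3, a binding partner of the NF-kB inhibitor A20, averaged 1.79 ± 1.02 CPM in cKO and 14.7 ± 4.35 CPM in control. Some cKO values rest on few counts: Nedd4l had 32 counts in the 4 cKO libraries together and 542 in control.

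Proteins of the nucleus and of nucleic acid metabolism numbered 7. Atxn1, ataxin 1, a nuclear protein that represses transcription with Capicua and whose repeat expansion causes spinocerebellar ataxia in humans, had 55.1, 45.6, 27.1 and 41.8 CPM in cKO, against 298, 375, 206 and 328 CPM in control. Fancc, of the Fanconi anaemia core complex for crosslink repair, had 25.3, 25.8, 24.4 and 29.3 CPM in cKO, against 152, 132, 116 and 135 CPM in control, with a narrow spread in cKO. Lmntd1, named for its lamin tail domain, had 0.903, 0.225, 0.683 and 0.198 CPM in cKO, against 8.38, 15.6, 23.2 and 21.7 CPM in control. It had the lowest level relative to control of all 45, 2.92%, and its cKO values are 1 to 4 counts a library, 9 in all in cKO and 297 in control. The ratio of those counts, scaled to the totals of both groups, is 2.90% of control with a 95% Clopper-Pearson interval of 1.31% to 5.58%, which covers counting error only. T2, named brachyury 2, had 8.58, 6.51, 9.34 and 14.6 CPM in cKO, against 56.7, 55.2, 53.6 and 54.6 CPM in control, and Foxp1, a forkhead transcription factor, 6.77, 6.73, 5.92 and 5.94 CPM in cKO, against 37.1, 31.9, 28.3 and 34.6 CPM in control. Wdr5b, an intronless relative of the histone methyltransferase subunit Wdr5, had 1.81, 3.82, 2.05 and 3.56 CPM in cKO, against 23.2, 28.3, 30.9 and 20.9 CPM in control, and Gon7, a subunit of the KEOPS complex that modifies transfer RNA, 3.84, 2.92, 3.65 and 5.74 CPM in cKO, against 25.1, 25.5, 12.2 and 24.2 CPM in control. For all 4 the highest cKO library stayed under the lowest control, and Gon7 came closest, with control replicate 3 standing apart below.

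The cytoskeleton and chaperone group had 4 genes. Myl4, an essential myosin light chain of atrial and embryonic muscle, had 9.25, 6.73, 3.42 and 6.33 CPM in cKO, against 111, 68.9, 47.7 and 89.7 CPM in control, at 8.12% of control. Nav2, neuron navigator 2, a microtubule-associated protein, had 4.74, 6.73, 5.47 and 7.92 CPM in cKO, against 39.2, 49.6, 35.1 and 46.1 CPM in control. Ptges3l, related to the p23 co-chaperone, had 13.3, 10.3, 12.98 and 11.5 CPM in cKO, against 59.05, 63.04, 53.4 and 67.8 CPM in control. Within Myl4 replicate 3 was lowest in both genotypes, whereas Ptges3l was even in both. Dnah11, an axonemal dynein heavy chain of motile cilia, averaged 3.06 ± 0.973 CPM in cKO and 20.5 ± 2.33 CPM in control. Of 3 metabolic enzymes, Me3, the mitochondrial NADP-dependent malic enzyme, had 9.48, 11.4, 13.2 and 13.5 CPM in cKO, against 73.1, 65.4, 59.9 and 93.4 CPM in control. Plpp6, a lipid phosphatase, averaged 5.57 ± 0.798 CPM in cKO and 32.8 ± 7.51 CPM in control, and Acer3, an alkaline ceramidase, 1.56 ± 0.939 CPM in cKO and 11.01 ± 2.97 CPM in control. Acer3 is the gene nearest the control threshold, and just outside it 4933405O20Rik stood at 1.81 CPM in cKO and 9.98 CPM in control.

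The remaining 14 genes are named for testis expression or only predicted. Gm5065 was the most abundant of all 45, with 81.7, 85.8, 52.4 and 93.02 CPM in cKO, against 614, 545, 465 and 765 CPM in control. Gm4985 had 64.8, 31.7, 69.3 and 52.4 CPM in cKO, against 316, 265, 199.9 and 323 CPM in control, and Gm7073 21.4, 20.9, 15.9 and 24.9 CPM in cKO, against 138, 95.6, 88.2 and 184 CPM in control. In these 3 genes cKO replicate 3 or 2 was lowest and control replicate 3 the lowest control. Per 1000 countable bases, the control level was 589.9 CPM for Gm5065, 224 for Gm4985, 107 for Defb41, 93.4 for Gm7073 and 63.5 for Opalin, whereas Atxn1, second in CPM, had 29.9. Countable bases were summed over all annotated exons, also those without counts. Genes with many uncounted exons therefore stand lower on this scale. 2310003L06Rik had 4.06, 2.69, 3.65 and 2.57 CPM in cKO, against 50.3, 40.8, 42.4 and 61.2 CPM in control, at 6.67% of control, with all 4 cKO libraries low. Spata31d1d, of a family of sperm proteins, averaged 4.23 ± 1.54 CPM in cKO and 30.3 ± 5.45 CPM in control, and Speer4f2, of a glutamate-rich family transcribed in testis, 4.96 ± 4.35 CPM in cKO and 27.5 ± 6.18 CPM in control. In Speer4f2 the cKO spread came from replicate 4, at 11.5 CPM, without which the fitted log2 fold change was -3.43, against -2.59 with all libraries. The others of the 14 (4930519G04Rik, 4930556J24Rik, 4930544G11Rik, Fam124b, 1700019D03Rik, Gm5286, BC147527 and Gm20826) had means of 1.80 to 6.20 CPM in cKO and 11.3 to 38.7 CPM in control.

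**Figure D3:**
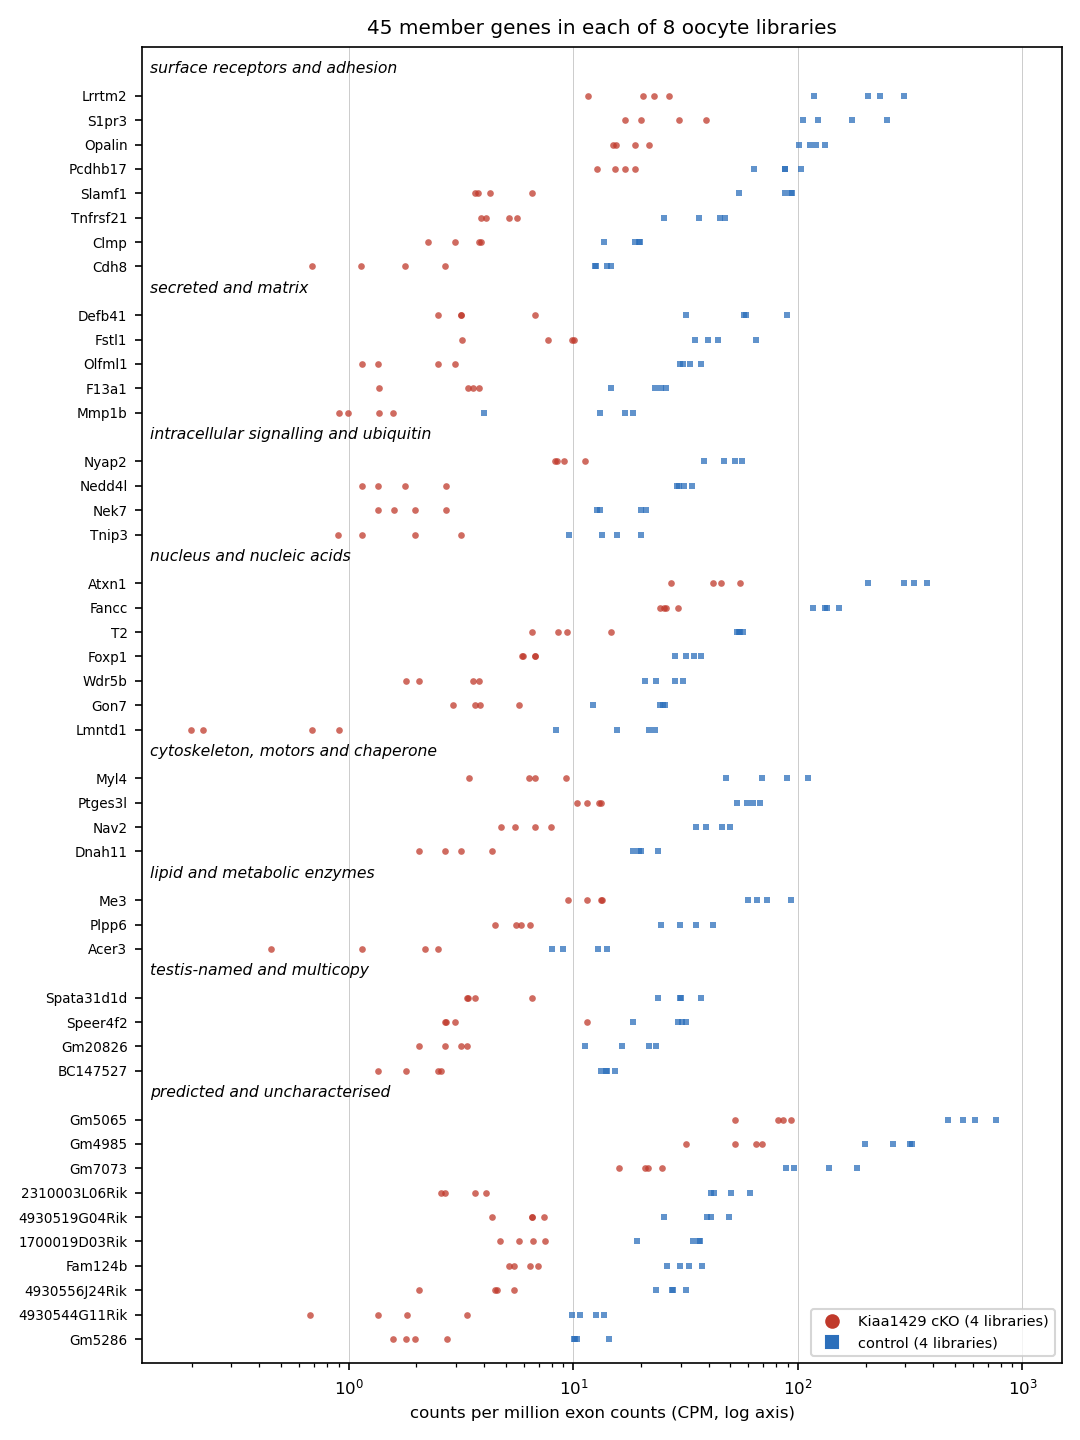
CPM of each of the 45 genes in every library on a logarithmic axis, cKO as red circles and control as blue squares, 4 libraries each, grouped by role and ordered by control level. Red and blue do not overlap in any row, and the sums over the 45 genes are 388 to 516 CPM in cKO and 2909 to 3543 CPM in control.

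At the fold threshold the selection cut through a continuous range. Just inside stood Fancc (19.6% of control), Gm4985 (19.8%) and Ptges3l (19.8%), and just outside Ttc6 with 15.4 CPM in cKO and 76.1 CPM in control (20.3%), Lrp1b with 16.4 CPM in cKO and 80.6 CPM in control (20.3%) and 2210016L21Rik with 2.19 CPM in cKO and 10.7 CPM in control (20.4%). When TMM-scaled library sizes were used in place of raw sums, 67 genes met the rule, all 45 among them.

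The spread within a group was larger for these genes than for coding genes at 10 CPM or more in control, mainly in cKO. The median coefficient of variation over 4 libraries was 29.7% in cKO and 20.6% in control for the 45 genes, against 12.3% in cKO and 17.9% in control for the comparison genes. Counts of the 45 genes were lower in cKO, and the part of counting error in this difference was not tested. Over the 45 genes cKO replicate 3 was the lowest cKO library for 21 genes and replicate 2 for 16, cKO replicates 1 and 4 were the highest for 17 each, and control replicate 3 was the lowest control for 23.

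Where in each gene the counts lay was examined next, since the deposited counts are per exon and the selection used only their sum. Reads meeting more than 1 exon ID were not counted, so bases shared by exon IDs could not add to these counts. The 45 genes have 879 exon IDs, of which 164 had any control count and 72 at least 20. Counts were concentrated: the leading exon held a median of 98.7% of a gene's control counts, it was a last exon in 37 genes, an internal one in 6 (BC147527, Cdh8, Mmp1b, Nek7, Nyap2 and T2) and a first one in 2 (Dnah11 and Fancc), and 28 genes had just 1 exon with at least 20 control counts. Last exons held 86.4% of the control counts of the 45 genes and 85.5% of those of the comparison genes. The 72 exons had a median of 0.141 of control, and 63 of them stood at 1/5 or less, which the selection on the gene sums fixes in large part.

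In 7 genes under 5% of the control counts lay on exons with coding bases: Lmntd1, Me3, Myl4, Nav2, Nedd4l, BC147527 and T2. Foxp1, with 46.9%, and Fstl1, with 27.0%, stood below 50%. For Lmntd1, Me3 and Nedd4l nearly all counts fell outside every protein-coding transcript of the annotation: the Nedd4l counts lay on 1 exon of 4677 bases (chr18:65165572-65170248, plus strand) that ends a transcript annotated as retained intron, those of Me3 on the last exon of a processed transcript (chr7:89641027-89643673, plus strand), and those of Lmntd1 likewise (chr6:145580541-145582650, minus strand). Nav2 had 66.1% of its counts on the last exon of a retained-intron transcript (chr7:48963798-48967836), with 35 counts in cKO and 491 in control, a ratio of 0.0682 (95% interval 0.0470 to 0.0962). The values of the 7 genes are thus almost wholly those of exons without coding bases. In Myl4, BC147527 and T2 these exons still belong to transcripts with a coding sequence, which held 99.6%, 100% and 100% of control counts. Reads meeting more than 1 exon ID were set apart as ambiguous (78.8% to 80.4% of reads in cKO, 72.9% to 75.4% in control). Coding exons that overlap other exon IDs could therefore hold few counts, and where the RNA itself lies was not tested. In 32 genes 90% or more of the counts lay on exons with coding bases. Such an exon can be mostly untranslated, as in Acer3, where 51 of 10502 bases of the leading exon are coding.

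**Figure D4:**
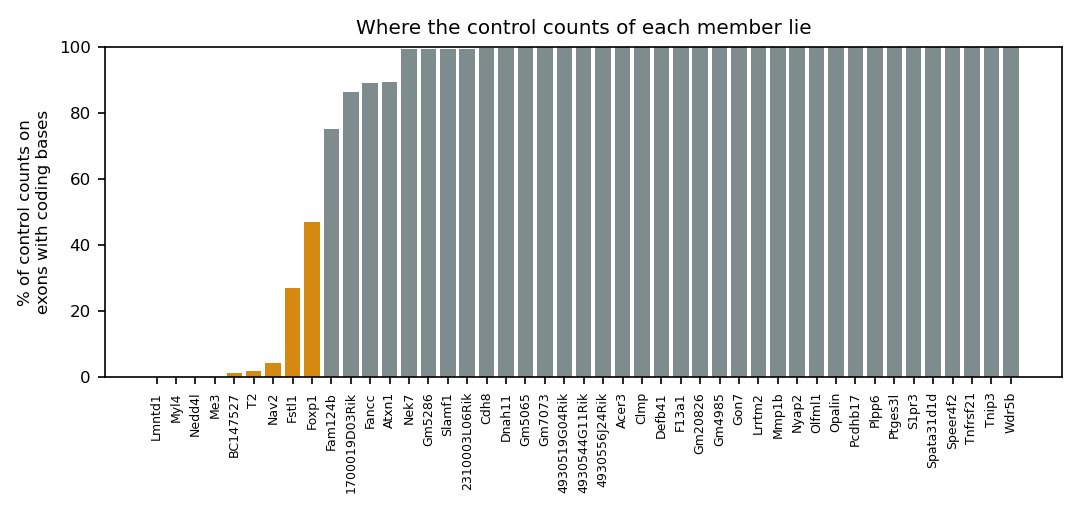
Share of each gene's control counts (vertical axis, %, 4 libraries summed) on exons that hold coding bases, 1 bar per gene, the 9 below 50% in orange. The bars of Lmntd1, Me3, Myl4, Nav2, Nedd4l, BC147527 and T2 lie under 5%, and 32 bars at 90% or more.

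Some of the internal exons are short and wholly coding, and those of Nek7 and Mmp1b are shown because they carry the counts of their gene alone or in large part. They come from the annotated transcripts of GRCm38. GGAC is in neither, so no letter is capitalised, and other forms of the m6A motif were not searched.
Nek7 exon: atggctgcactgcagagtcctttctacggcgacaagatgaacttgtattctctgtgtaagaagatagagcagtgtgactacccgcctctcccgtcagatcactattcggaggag
Mmp1b exon: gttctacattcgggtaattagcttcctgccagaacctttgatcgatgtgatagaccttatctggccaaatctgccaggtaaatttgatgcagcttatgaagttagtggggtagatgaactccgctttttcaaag
The Nek7 exon (chr1:138498576-138498689, minus strand) held 98.3% of the gene's control counts, 32 counts in cKO and 286 in control. The Mmp1b exon (chr9:7370730-7370863, minus strand) held 50%, 10 counts in cKO and 115 in control.

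Exons within 1 gene differed in their ratio. Of the 72 exons 9 stood above 1/5 of control and 2 above 1/2. The first exon of Fam124b had 62 counts in cKO and 84 in control, a ratio of CPM of 0.706 (95% Clopper-Pearson interval 0.500 to 0.992), whereas its last exon had 27 counts in cKO and 332 in control (0.0778, 0.0505 to 0.115). A first exon of Fancc (chr13:63409538-63409768) had 129 counts in cKO and 214 in control (0.577, 0.460 to 0.721), and the leading one (chr13:63497101-63497278), which holds 89.1% of control counts, 253 in cKO and 2101 in control (0.115, 0.101 to 0.131). Another exon of Fancc, an untranslated last exon (chr13:63321299-63321662), was higher in cKO, with 77 counts in cKO and 13 in control (5.67, 3.13 to 11.1). The untranslated first exon of 40 bases of Gm5065 (chr7:5351208-5351247) likewise had 35 counts in cKO and 7 in control (4.78, 2.09 to 12.8), beside a last exon that holds 99.9% of its control counts. In Opalin an internal coding exon of 123 bases stood at 0.377 (0.256 to 0.546) and the last exon at 0.139 (0.122 to 0.158). These exons were picked out after their values were seen.

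**Figure D5:**
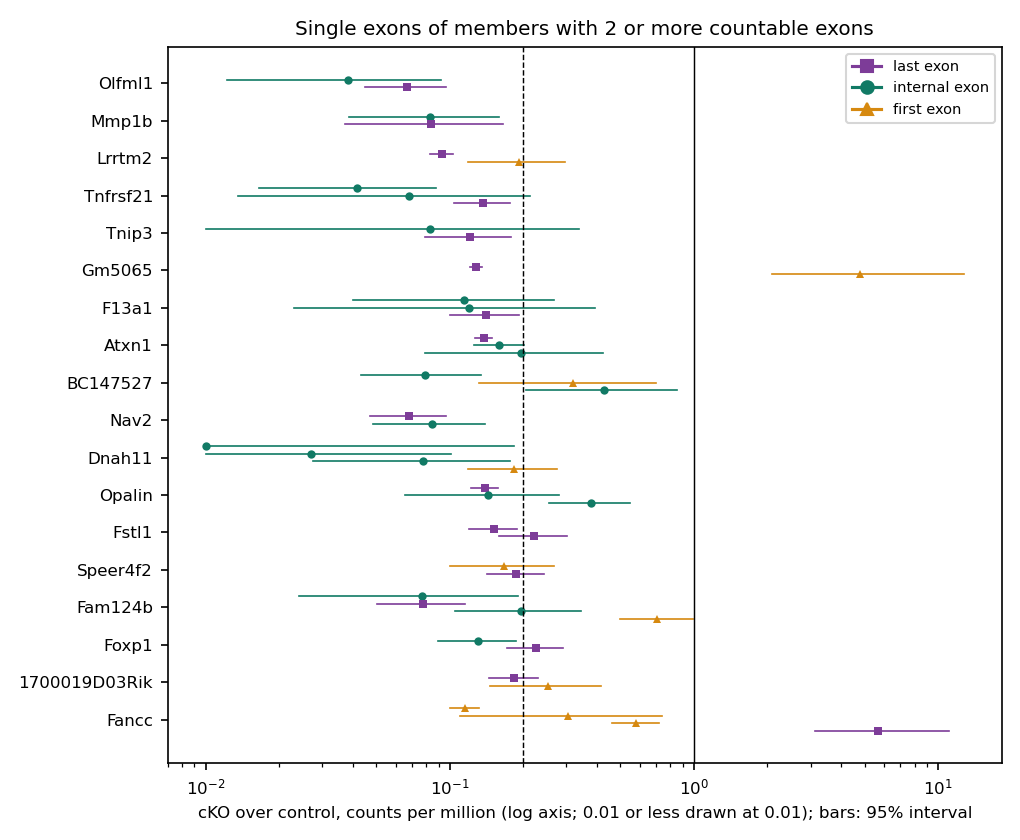
Ratio of cKO to control CPM (logarithmic axis; points are single exons with at least 20 control counts, or at least 20 cKO counts where cKO is higher; bars are 95% Clopper-Pearson intervals) for genes with 2 or more such exons. Most points lie left of the dashed line at 1/5, those of the Fancc last exon (5.67) and the Gm5065 first exon (4.78) right of the line at 1.

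Compared with the other coding genes at 10 CPM or more in control, the 45 genes had somewhat shorter transcripts and fewer exons. On the longest coding transcript of each gene, the median length was 2739 bases for the 45 and 3208 for 4574 comparison genes, the coding length 1071 bases for the 45 and 1407 for the comparison genes, the 3' untranslated length 813 bases for the 45 and 1148 for the comparison genes, and the exon number 6 for the 45 and 9 for the comparison genes. Single-exon transcripts were 5 of 45 (11.1%: 4930544G11Rik, Gm4985, Pcdhb17, Plpp6 and Wdr5b) and 136 of the comparison genes (2.97%). Median GC content was 47.1% for the 45 and 48.2% for the comparison genes. These transcripts are not the counted RNA of every gene, as given below.

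GGAC, a core form of the motif in which m6A is written, was about as frequent in both sets. Its median was 3.57 per 1000 bases in the 45 genes and 3.83 in the comparison genes. For GGACT, which contains GGAC, the median was 0.989 in the 45 genes and 0.987 in the comparison genes. Within 200 bases of the stop codon, where m6A is known to be dense, 73.5% of the 34 transcripts long enough held a GGAC and 80.8% of the comparison transcripts. Ptges3l had the most in its whole transcript, 10.6 per 1000 bases, and Defb41 had 0. That Defb41 transcript has 198 bases and cannot contain the last exon of 354 bases that held all of the gene's control counts. These counts are of letters, and methylation was not measured. TTTTAT, the letters of the cytoplasmic polyadenylation element that binds CPEB in oocytes, was in the last 300 bases of 4 of 44 transcripts (9.09%, Cdh8, Gm4985, Me3 and Pcdhb17), against 1350 of the comparison transcripts (29.5%). On the coding transcript of each gene with the highest exon counts it was 5 of 45 (11.1%) against 30.9%. For Lmntd1, Me3 and Nedd4l nearly all counts fell outside every coding transcript, so neither choice is the counted RNA. Nav2 had 5.25%, Fstl1 27.0% and Foxp1 47.2% of control counts on exons of coding transcripts. In Atxn1 and Tnip3, as in Defb41, the longest coding transcript (3901 and 1543 bases) is shorter than the leading exon (7831 and 2964 bases). The motif values of these genes thus need not describe their counted RNA. The poly(A) signal AATAAA was in 59.1% of the 45 genes' transcripts and 69.9% of the comparison transcripts, and the AU-rich letters ATTTA in 40.9% of the 45 genes' and 45.3% of the comparison transcripts. Each is the share of transcripts with a match on the sense strand, and the lengths of the 3' untranslated regions also differ between the sets.

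The genes are spread over 16 chromosomes, with 6 each on chromosomes 1 and 13. Of all pairs of them 2 lie within 1000000 bases of each other, Tnip3 and 4930544G11Rik (318569 bases apart) and Fam124b and Nyap2 (858477). Their nearest tested neighbours on either side, 88 genes, were called lower in 29 cases (33.0%, against 27.9% of all tested genes) and higher in 27 (against 27% of all), with a median log2 fold change of 0.11. Cd84, a SLAM family receptor 38513 bases from Slamf1, had 0.226, 0.673, 0.228 and 0 CPM in cKO, against 5.44, 5.19, 3.74 and 3.77 CPM in control (log2 fold change -4.07, SE 0.49, adjusted p = 5.76e-06, edgeR). Gm11954, a processed pseudogene 25679 bases from 4930556J24Rik, averaged 2.32 CPM in cKO and 68.8 CPM in control (log2 fold change -5.03, adjusted p = 8.52e-09, edgeR). The nearest gene to Nedd4l on the left, Atp8b1, a phospholipid flippase, was higher, with 17.1 CPM in cKO and 1.73 CPM in control (log2 fold change 3.15, adjusted p = 6.46e-07, edgeR).

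Because the libraries do not mark strand, the strand of a read cannot tell overlapping genes apart. Where exons of both genes meet, reads were set apart as ambiguous and add to neither value. Whether reads elsewhere in an overlap came from the other gene was not tested. Of the 45 genes 30 overlap another annotated gene and 14 a tested one. Of the 17 such tested genes 9 were called lower and 3 higher by edgeR. Over all tested genes 27.9% were called lower and 27% higher. Gm5065 lies opposite Nlrp2, an oocyte gene, which averaged 1011 CPM in cKO and 1872 CPM in control (log2 fold change -1.05, adjusted p = 0.000115). Gm2788, on the strand of Nav2, averaged 6.96 CPM in cKO and 53.3 CPM in control (-3.09, adjusted p = 8.52e-09), and Gm47588, on that of Fancc, 5.30 CPM in cKO and 34.5 CPM in control (-2.84, adjusted p = 4.51e-07). Ctnna1, alpha-catenin, opposite Lrrtm2, averaged 92.9 CPM in cKO and 133 CPM in control (-0.68, adjusted p = 0.00505). The other genes called lower were Gm11665 and Gm22000 opposite Myl4, Gm45282 opposite Nav2, 2010111I01Rik opposite Fancc and Gm15681, a processed pseudogene on the strand of Cdh8 with 864 CPM in cKO and 1723 CPM in control. Those called higher were Cdca7l opposite Dnah11, Pes1 opposite 4930556J24Rik and Gm20604 on the strand of Gon7, with 25.9 CPM in cKO and 12.0 CPM in control (0.95, adjusted p = 0.000388).

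Several genes share sequence with others, and their counts depend on how reads with more than 1 match were treated, a step that no source used here gives. The leading exon of 14 genes matched a transcript of another gene over at least 100 bases at 95% identity or more, and in 5 of them (Gm20826, 4930519G04Rik, Acer3, Me3 and Fstl1) it matched 11 to 377 genes. Gm20826 is annotated on the Y chromosome, while the oocytes come from females, so its 2.82 CPM in cKO and 18.2 CPM in control cannot be assigned to that locus. Speer4f2 matched its neighbour in the family, Speer4f1, at 97.2% over 541 bases. In 5 of the 14 genes the match was at 100% to a gene that overlaps the same locus on the other strand, and not to a copy elsewhere: Atxn1 to Gmpr, Wdr5b to Fam162a, Clmp to Gm16096, Plpp6 to 4430402I18Rik and Spata31d1d to Gm46419.

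The closest relatives of these genes, listed by family, did not share a single direction. Among Nedd4-type HECT ligases other than Nedd4l, 5 of 8 could be tested, of which Wwp1, Wwp2 and Hecw1 fell and Nedd4 and Smurf2 rose. Without scaling factors the calls of Wwp1 and Wwp2 were lost (adjusted p = 0.056 and 0.148, edgeR). The call of Wwp2 was also lost with no low-count filter (adjusted p = 0.0863) and on leaving out any 1 of control replicates 1, 2 and 3 and cKO replicates 1, 2 and 3 (adjusted p 0.0511 to 0.127), and with last exons left out Wwp2 turned to 0.76 on the log2 scale. Nedd4, the closest paralog of Nedd4l, averaged 78.6 ± 14.8 CPM in cKO and 22.5 ± 6.25 CPM in control (n = 4 each, log2 fold change 1.65, SE 0.19, adjusted p = 4.96e-06, edgeR). Of SLAM receptors and adaptors 4 of 10 could be tested: Slamf7, Slamf9 and Cd84 fell and Cd48 rose. The call of Cd48 was lost on leaving out any 1 of control replicates 1 and 3 and cKO replicates 1 and 2 (adjusted p 0.0547 to 0.0941, edgeR), with no low-count filter (adjusted p = 0.0568) and with DESeq2 (adjusted p = 0.0623). Leucine-rich synaptic adhesion genes other than Lrrtm2 had 3 of 18 tested, Lrrtm3, Lrrc4 and Nrxn3, and all 3 fell. Lrrtm3 averaged 2.36 ± 1.16 CPM in cKO and 9.10 ± 1.93 CPM in control (log2 fold change -2.10, SE 0.33, adjusted p = 6.88e-05, edgeR). All 3 olfactomedin-domain genes that could be tested beside Olfml1, of 9, fell as well: Olfm4, Olfml2a and Myoc. The call of Olfml2a was lost without scaling factors (adjusted p = 0.0704, edgeR), with no low-count filter (adjusted p = 0.0887), with DESeq2 (adjusted p = 0.074), and on leaving out any 1 of control replicate 3 and cKO replicates 1, 3 and 4 (adjusted p 0.0544 to 0.12). The background was 27.9% called lower and 27% higher over all tested genes.

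Around Wdr5b, 9 of 14 other subunits of the COMPASS histone methyltransferases were tested, and Kmt2c fell while Kmt2a rose. Kmt2a averaged 30.9 ± 2.78 CPM in cKO and 1.54 ± 0.121 CPM in control (log2 fold change 4.14, SE 0.23, adjusted p = 6.53e-09, edgeR). Wdr5, Dpy30, Hcfc1, Kmt2d, Setd1b, Cxxc1 and Wdr82 did not pass. Of the TNF receptor superfamily 5 of 26 were tested, with Tnfrsf17, the receptor for BAFF and APRIL, lower and Tnfrsf12a, the receptor for TWEAK, higher, Tnfrsf12a with adjusted p = 0.0517 without cKO replicate 3 (edgeR). Myosin light chains had 2 of 11 tested, Myl12a lower and Myl12b higher, and none of the 12 other beta-defensins listed could be tested. The median log2 fold changes of the tested relatives were -0.50 for HECT ligases, -1.23 for SLAM genes, -1.37 for the synaptic adhesion genes, -1.93 for the olfactomedin genes, 0.04 for COMPASS and 0.47 for TNF receptors, beside 0.02 for all tested genes. With 2 to 9 tested genes each, nothing particular to a family is read from them.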

How the data were processed

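Oocyte RNA of 4 cKO and 4 control libraries was primed with oligo-dT, template-switched, amplified, tagmented and sequenced as pairs, per the labels' protocols, and such libraries do not mark strand. The authors deposited 1 table of raw exon counts for each library. Per the submitters' processing notes, STAR, HTSeq and mm10 were used, with versions not given in the sources used here. Reads meeting more than 1 exon ID were set apart as ambiguous (78.8% to 80.4% of reads in cKO, 72.9% to 75.4% in control), and reads outside exons were 5.01% to 6.19% in cKO and 9.86% to 12.0% in control. These rows stayed out of library sizes.

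Exon IDs were matched to GENCODE M21, ignoring versions (494230 of 496288, 99.6%), and summed per gene. CPM is over the matched exon counts of a library. Tests used the edgeR 4.0.16 quasi-likelihood fit (R 4.3.3) with TMM scaling, filterByExpr at a minimum count of 10 and Benjamini-Hochberg adjustment over all tested genes at 0.05. DESeq2 1.42.0 was an alternative. The fit was tested on simulated data. Sequence matches used BLAST 2.17.0, and summed markers an exact permutation test over 70 arrangements (SciPy 1.17.1). Intervals at 95% cover counting error only.

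The 45 genes, the family, marker and role lists and the tests were chosen with earlier results of these data known. Genes named are Virma, the 25 of lowest ratio, the 10 of highest control CPM, up to 4 per role, those at the thresholds, members and called genes of the family lists, and called neighbours. Without scaling factors all log2 fold changes would shift by a median of 0.157. Comparison genes are the coding genes at 10 CPM or more in control. All 4619 serve for levels and spread, and the 4574 outside the 45 for sequence features.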

Additional observations from a re-analysis of the deposited data

Results flagged for a closer look

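In 90 groups of 4 libraries (45 genes, cKO and control), 8 had 1 library far from the other 3 by Dixon's test at its 95% critical value, and chance alone flags about 1 in 20 groups, or about 4.5. In cKO all 3 flags were the highest library and all were replicate 4: Speer4f2 at 11.5 CPM, Defb41 at 6.73 CPM and Spata31d1d at 6.53 CPM. Speer4f2 without that library had a log2 fold change of -3.43. In control, replicate 2 was lowest for Slamf1 (54.8 CPM) and Clmp (13.7 CPM), replicate 3 was lowest for Gon7 (12.2 CPM) and 1700019D03Rik (19.2 CPM), and replicate 1 was highest for Gm5286 (14.4 CPM). No flagged value crossed into the range of the other genotype.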

How the results depend on the processing

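The number of genes meeting the rule was 45 with raw library sizes and 69 with upper-quartile scaling, 70 with a control level of 5 CPM, 83 at up to 1/4 of control, 9 at up to 1/10, and 16 with last exons left out, of which 10 are among the 45; leaving out 1 library at a time gave 42 to 53, and 33 of the 45 met the rule in all 8 of those settings. With last exons left out, 995 genes were called lower and 973 higher (2973 and 2883 with them), 5 and 4 of the family lists (16 and 11 with them), and Wwp2 reversed to 0.76; fewer genes are then tested. Of 648 alternative log2 fold changes of the 45 genes, whose sign the selection on these libraries fixes, 12 moved by more than the spread between libraries, and with last exons left out 18 genes could be fitted. Theca and stroma markers passed with TMM scaling (-1.84 CPM, cKO minus control, exact permutation p = 0.0286), and vessel markers reversed to -0.424 CPM. Leaving out 1 library gave -16850 to -13520 CPM for oocyte, 280.5 to 390.1 for cumulus and granulosa, 7.69 to 9.17 for immune and blood and -0.371 to 1.99 for vessel markers; 3 against 4 libraries cannot give an exact permutation p under 0.0571. Whether the replicate numbers pair the libraries is not given in the labels. Same-numbered pairs deviated together with r of 0.104, -0.0516, 0.100 and 0.062, within the range of differently numbered pairs (-0.199 to 0.189). These values do not decide whether the numbers mark a shared experiment. With the replicate block 2908 genes were called lower and 2885 higher. The calls of Igf2bp3 (adjusted p = 0.056, edgeR) and Olfml2a (adjusted p = 0.0579, edgeR) were then lost. What limits these genes is their low counts in cKO, since 1 CPM is worth 4 or 5 counts a library in both groups. In addition, 28 of the 45 genes have just 1 exon with at least 20 control counts. Reads set apart as ambiguous, 78.8% to 80.4% in cKO and 72.9% to 75.4% in control, are a further limit. Their part in these values was not tested. The cause of the changes with settings was not tested.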

Other observations

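Other gene groups gave values that belong in no comparison above. In the insulin-like growth factor pathway, a list without any of the 45 genes, 10 of 20 genes could be tested: 5 rose in cKO, Igf1, Irs4, Igfbp3, Igfbp6 and Grb10, and 1 fell, Igf2bp3, against 27% of all tested genes called higher and 27.9% lower. The call of Igf1 was lost on leaving out any 1 of control replicates 1 and 2 and cKO replicate 4 (adjusted p 0.0553 to 0.0899, edgeR). The call of Igf2bp3 was lost without scaling factors (adjusted p = 0.156, edgeR) and with no low-count filter (adjusted p = 0.129), and on leaving out any 1 of control replicates 3 and 4 and cKO replicates 1, 2 and 4 (adjusted p 0.0572 to 0.116). Igfbp6, a secreted binding protein with preference for IGF2, averaged 79.3 ± 5.30 CPM in cKO and 7.94 ± 2.05 CPM in control (n = 4 each, log2 fold change 3.16, SE 0.19, adjusted p = 1.02e-08, edgeR). Summed cumulus and granulosa markers were higher as well, 591 CPM in cKO and 262 CPM in control. Of that sum Nr5a2 alone made up 338.5 CPM in cKO and 130 CPM in control. The part of follicle cells in the values of this list was not tested.

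Genes that share a symbol stem with one of the 45 (such as other Wdr, Fam, Cdh or Dnah genes, often with no closer kinship) numbered 186 among those tested. Of these 47 were called lower and 58 higher, with a median log2 fold change of 0.11. The shares over all tested genes were 27.9% lower and 27% higher, and nothing is read from the difference. Wdr20 averaged 193 ± 45.8 CPM in cKO and 747 ± 138 CPM in control (log2 fold change -2.11, SE 0.19, adjusted p = 4.46e-07, edgeR), while Cdh12, a cadherin, averaged 14.2 ± 4.05 CPM in cKO and 1.02 ± 0.246 CPM in control (log2 fold change 3.59, SE 0.33, adjusted p = 4.46e-07, edgeR). Both were picked after their values were seen.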
